A study of Mus musculus with 6 samples.

Results

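Transcripts whose 3′ UTR is split by at least 1 intron were examined in LPS-treated bone marrow derived macrophages (BMDMs) with and without the exons 3 and 4 of Hnrnpd, the gene of the AU-rich element RNA-binding protein AUF1. The members were transcripts of protein_coding genes that were counted over 2 or more 3′ UTR segments and had a mean of at least 20 raw counts over the 6 libraries, with identical count rows of a gene taken once. This gave 1811 transcripts of 1459 genes, out of 10017 protein_coding transcripts with 2 or more segments and 142567 transcripts in the whole series. The mean count chose the members and ranged from 20 to 27300 with a median of 83.3, and the highest mean just under the limit was 19.8.

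Control BMDMs came from C57BL/6J mice with the genotype hnRNPDfl/fl (n = 3 libraries) and M-Δx3,4 BMDMs from C57BL/6J mice with the genotype LysCre+hnRNPDfl/fl (n = 3 libraries). Both groups thus carried the floxed allele, and the deletion depends on Cre driven by the lysozyme promoter, which is active in myeloid cells. All cells were grown for 10 days in medium conditioned by L929 cells and then received LPS at 100 ng/ml for 4 hrs. The labels do not say whether replicates came from separate mice or cultures, so p-values measure the spread between these libraries only. Library totals ran from 5852374 to 9008878 counts over all segments, and 513133 to 804528 of them lay on the members. All 8 macrophage markers had counts in these cells, with summed normalized counts of 5410 to 7070 a library. The neutrophil markers summed to 387 to 728 a library (6 of 6 with counts, Ly6g under a mean of 1 raw count), the T cell markers to 5.8 to 37.2 (2 of 4, Cd3e, Cd3g and Trbc2 under 1), the fibroblast markers to 1.16 to 43.0 (4 of 4), the dendritic cell markers to 0.978 to 9.2 (3 of 4, Flt3 and Cd209a under 1) and the erythroid markers to 0 to 32.5 (3 of 4, Hba-a1 and Hba-a2 under 1). Control replicate 3 stood apart from the other libraries over the members (Pearson r of log2 counts 0.736 to 0.849, against up to 0.955 for other pairs) and held nearly all counts of the liver genes Mup and Alb.

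A stop codon usually lies in the last exon of an mRNA. When an exon junction lies well downstream of the stop, the exon junction complex left there by splicing stays on the RNA while it is translated, and this marks the RNA for nonsense-mediated decay (NMD). AUF1 binds AU-rich elements of 3′ UTRs, and alternative splicing of the 3′ UTR of Hnrnpd itself gives rise to both coding RNAs and NMD targets. In 3′ end sequencing (QuantSeq) the reads start near the poly(A) tail, so the last segment of a 3′ UTR is where most of the reads of an RNA with that end should lie.

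The members fell into different structures, and their upstream segments are shown first by sequence. In the GENCODE vM21 annotation of GRCm38, 1223 of the 1811 members (67.5%) are NMD transcripts and 581 (32.1%) are protein_coding, since the type given in the count table is that of the gene. The first set shows how short the upstream segment of a coding member can be. Each line starts with the stop codon and runs into the last segment, 5′ to 3′, with the whole upstream segment in capitals.
Rps25: tgaACAGgttcaatcagctgtacatttgga
Ndufab1: taaAGTATCAGagccttcttcctcactgtg
B2m: tgaTCAAGCATCATGATGctctgaagattc
Jak3: tagCAGCCAGGGGCGAGAgggagctgctgc
H2-Aa: tgaGTCACACCCTGGAAAGGAAGgcgtgtg
These upstream segments have 4, 8, 15, 15 and 20 bases, less than a sequencing read, and lie at chr9:44410049-44410052 (plus strand), chr7:122091586-122091593 (minus), chr2:122151661-122151675 (plus), chr8:71688148-71688162 (plus) and chr17:34283155-34283174 (minus). Rps25 encodes a protein of the small ribosomal subunit, Ndufab1 the mitochondrial acyl carrier protein, B2m the light chain of MHC class I, Jak3 the kinase of the common gamma chain receptors and H2-Aa the alpha chain of MHC class II.

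The second set holds members called below in the comparison of segment ratios. The segment that Hnrnpd p45 (ENSMUST00000172361) and p37 share lies directly after the stop codon at chr5:99962515-99962544 (minus strand), has 30 bases, and is followed by an intron of 1181 bases. The segment of Rnf19b, an E3 ubiquitin ligase, has 29 bases and lies at chr4:129084191-129084219 (plus strand). The junction lines show 15 bases on each side of the last junction in the spliced RNA, with the upstream side in capitals.
Hnrnpd segment: attattccatttgcaacttatccccaacag
Hnrnpd junction: ACTTATCCCCAACAGgtggtgaagcagtat
Rnf19b segment: aggcccctgttctgagaagcacacttgtt
Rnf19b junction: AGAAGCACACTTGTTgtttacctgctgcct
Azin1 junction: GTCATTCAGTGATTGgtatgagatgcaaga
Actg1 junction: ACGATGAAGATTAAGatcattgctccccct
H2-T22 junction: CCCCAGGAACTTCAGttggcgagtctttac
The last upstream segments of Azin1, Actg1 and H2-T22 lie at chr15:38491476-38491690, chr11:120346637-120346818 and chr17:36038985-36039054, all on the minus strand. In these genes upstream segments lie over coding sequence of other transcripts of the gene.

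The last set shows annotated 3′ ends, 30 bases each, with a poly(A) signal (AATAAA or ATTAAA, searched on the transcript strand) in capitals where it is present.
Hnrnpd p37 end: ggttttttAATAAAtccttttgtataaaaa
Hnrnpd p45 end: ttaacaATTAAActttccagcactcatgca
B2m end: ttttgttacttttactaaaAATAAAaaact
H2-Aa end: aaaatctcttcttatatgttgtctactggg
Rnf19b end: cctagagatgtcccggtgcgactaaaggaa
Actg1 end: actgtccaccttccagcagatgtggatcag
The proximal end of Hnrnpd (p37, chr5:99961002-99961031) has AATAAA and the distal end (p45, chr5:99955935-99955964) ATTAAA. Within the last 50 bases, AATAAA was present in 50.7% of the 1805 members with a sequence and ATTAAA in 13.4%, against 52.6% and 15.4% of 10234 transcripts with a single segment and the same count limit. Either signal was present in 56.7% of the NMD members and in 71.6% of the coding members. The AU-rich pentamer ATTTA was searched in 1804 members and 7416 single-segment transcripts with a 3′ UTR sequence. It occurred at least once in 55.4% and 63.1% of them, at 1.19 and 1.72 copies per 1000 bases. The 10234 transcripts thus also hold some without an annotated 3′ UTR. In most NMD members part of the 3′ UTR is coding sequence in other transcripts, so the sets compared are unlike. All these values describe letters in a window or a 3′ UTR and were not tested.

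The distance from the stop codon to the last junction differed between the annotated types. Type and distance both come from the same annotation, so this difference describes the annotation and is not a result of the counts. It was at least 50 bases in 1218 of the 1223 NMD members (99.6%), with a median of 411 bases, and in 73 of the 581 coding members (12.6%), with a median of 21 bases and quartiles of 9 and 38. Among the named coding members it was 2 bases in Tctex1d2, 30 in Hnrnpd p37 and p45, and 157 in Hnrnpa2b1. The upstream segments lay over the coding sequence of another transcript of the gene in 1086 NMD members (88.8%) and in 88 coding members (15.1%), so for most NMD members the "upstream 3′ UTR" is coding sequence in other transcripts. The last segment overlapped that of a single-segment transcript of the gene in 91.6% of the NMD and 72.1% of the coding members, and the 3′ end was the same within 25 bases in 54.5% and 39.2%. Counts of a member therefore cannot be assigned to that RNA alone. The intron next to the last segment had a median of 780 bases in NMD and 843 in coding members.

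**Figure D1:**
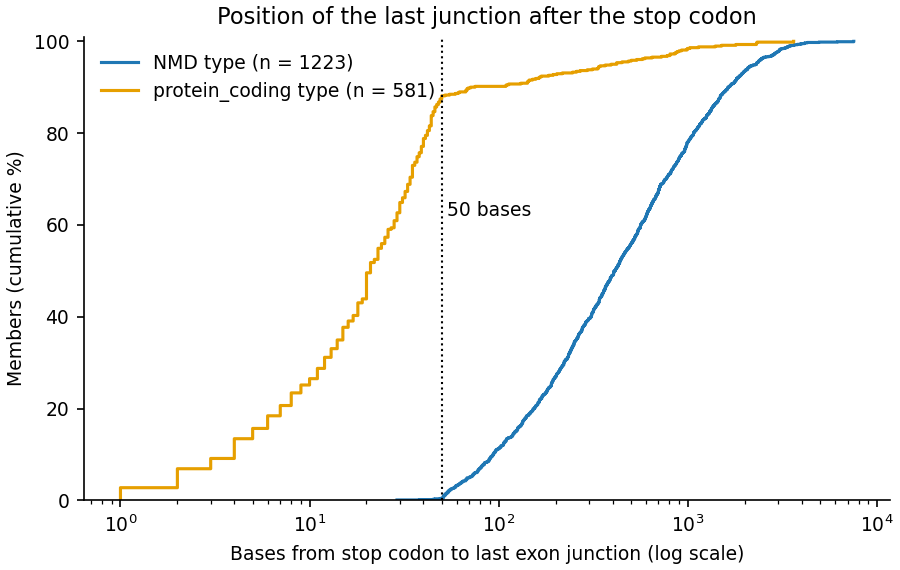
Cumulative percentage of members (y axis) by the number of bases from the stop codon to the last exon junction (x axis, log scale), for the NMD and protein_coding types of the annotation. The dotted line marks 50 bases: 99.6% of the NMD members lie at or beyond it, and 12.6% of the coding members. Type and distance both come from the annotation.

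Most counts of the members lay in the last segment. The upstream share, which is the percentage of a member's counts that lie in all upstream segments together, had a median of 1.24% with quartiles of 0.0 and 16.9%. No upstream count was found in 511 members (28.2%), 214 (11.8%) had over 50% upstream, and 38 had all counts upstream. Pooled over all members the share was 20.8%, 21.2% and 19.1% for control BMDMs against 19.9%, 21.0% and 19.8% for M-Δx3,4 BMDMs, so the groups overlapped. It was higher where the last segment is short. Its median was 14.6% in 152 members whose annotated last segment is under 100 bases and 22.1% in 232 members at 100 to 199 bases, but 5.31% at 200 to 399 (422 members), 0.541% at 400 to 799 (384) and 0.19% at 800 or more (615).

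**Figure D2:**
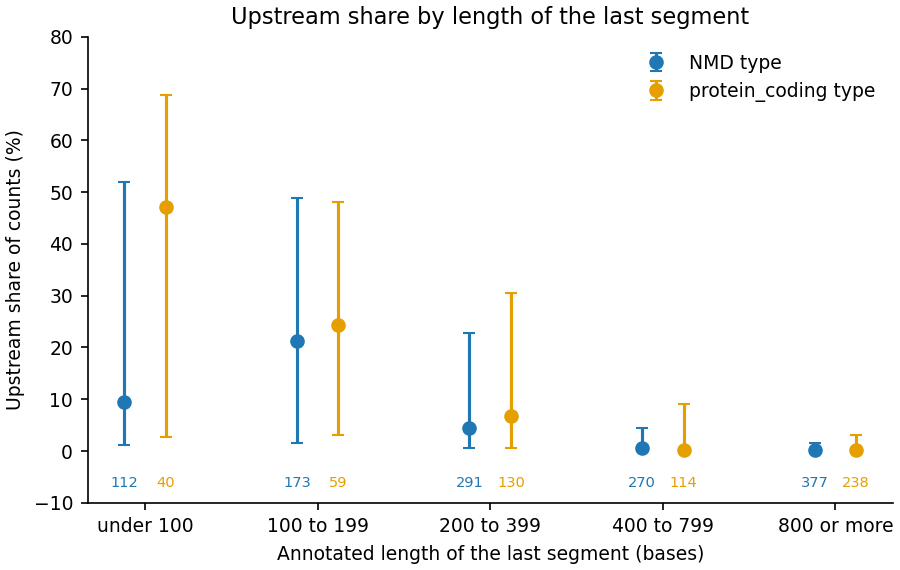
Upstream share of counts over the 6 libraries (y axis, %) by the annotated length of the last segment (x axis, bases), with points for medians, bars for quartiles and the number of members under each pair. Medians lay at 9.56% (NMD) and 47.1% (coding) for the shortest last segments and at 0.219% and 0.138% for those of 800 bases or more.

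Members with the highest counts covered this whole range. These values are summed raw counts of a region and are not divided by length, so they do not rank RNA levels between genes. Cotl1, which encodes an F-actin binding protein, had a mean of 27280 raw counts, and 0 to 14.5 normalized counts a library lay in its 144 upstream bases. Capzb (an actin capping protein, 25390) and Il4ra (the IL-4 receptor alpha chain, 6907) had at most 7.6 upstream normalized counts, both with M-Δx3,4 replicate 3 as the only library above 0. By contrast, 45.1 to 47.7% of the counts of an NMD member of Myl6, a myosin light chain, lay upstream in control against 44.2 to 46.9% in M-Δx3,4 BMDMs. B2m had 6.5, 3.8 and 4.4% of its counts in its 15-base upstream segment in control and 6.3, 3.3 and 6.5% in M-Δx3,4 BMDMs. The libraries of these genes overlapped between the groups.

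Ribosomal protein genes made up most of the high-count members with over 50% of their counts upstream. Of the 10 such members with the highest mean, 9 were the ribosomal genes Rps12, Rpl13a, Rpsa, Rps25, Rpl12, Rps18, Rps19, Rps3 and Rpl36a, and the other was Samhd1, a dNTP hydrolase that restricts viruses. In all, 37 members belonged to 25 genes with Rpl or Rps symbols, a group made after the values were seen, and their median upstream share was 51.9% (21 of 37 over 50%). In the members with the highest counts the shares varied little between libraries. In the NMD member of Rps12 it was 52.0, 51.5 and 51.6% in control against 52.2, 51.5 and 52.6% in M-Δx3,4 BMDMs. In Rps25, whose upstream segment is the 4 bases printed above, it was 51.8, 51.0 and 51.0% in control against 50.7, 50.7 and 51.4% in M-Δx3,4 BMDMs. Thus the 4 bases of Rps25 held 1.03 to 1.08 times the raw count of its last segment in every library. Over all members with at least 20 counts in each, the upstream count was within 10% of the last count in 35, of which 22 had an annotated last segment of under 200 bases and 10 had at most 30 upstream bases. The sources used here do not say whether a read that crosses the junction was counted in both segments, and summed counts of such members would then hold it in both.

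The first comparison asked whether M-Δx3,4 BMDMs use the segments in other proportions than control BMDMs. For each transcript with at least 20 counts in the last and at least 20 in the upstream segments, the log2 ratio of last to upstream counts was compared between the groups within libraries by edgeR's quasi-likelihood test. A call required an absolute difference of at least 1 with an unadjusted p under 0.05. Of the 616 members tested (34.0% of all), 22 were called (3.57%), 14 with a higher and 8 with a lower last-to-upstream ratio in M-Δx3,4 BMDMs, from 19 genes. Among all 710 transcripts tested, nearly all of them members, 3.8% were called, 2.39% higher and 1.41% lower, so the members' share is near the background. No adjusted p was under 0.05 in edgeR (smallest 0.564) or in limma, while 26 members had an unadjusted p under 0.05 in edgeR and 28 in limma. The upstream shares of the libraries did not overlap between groups in 67 members tested, against 11.1% of all transcripts tested. For any such gene the exact two-sided permutation test of the shares gives p = 0.1, the smallest that 3 against 3 libraries allow. The median difference was 0.05 over the members and over all transcripts tested.

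The depth of the smaller segment set how small a difference could be seen. The standard error of the difference had a median of 0.48 over the members tested, and 13 of the 22 calls had under 60 counts in a segment group. Of the 82 members with at least 1000 counts in each segment group, 0 were called by edgeR or limma. Their median standard error was 0.18, and their largest absolute difference was 0.76, in Gnai2, which encodes a G protein subunit. The 1 member of these with an unadjusted p under 0.05 was Rpl31 (difference 0.50, standard error 0.2, edgeR adjusted p = 0.981), named after its values were seen. Its upstream shares of 57.8, 52.8 and 52.5% in control lay above those of 44.0, 43.1 and 50.5% in M-Δx3,4 BMDMs. Whether reads that cross a junction were counted in both segments is not known. In members where they were, both counts hold the same reads, so the absence of a call cannot show an unchanged ratio.

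**Figure D3:**
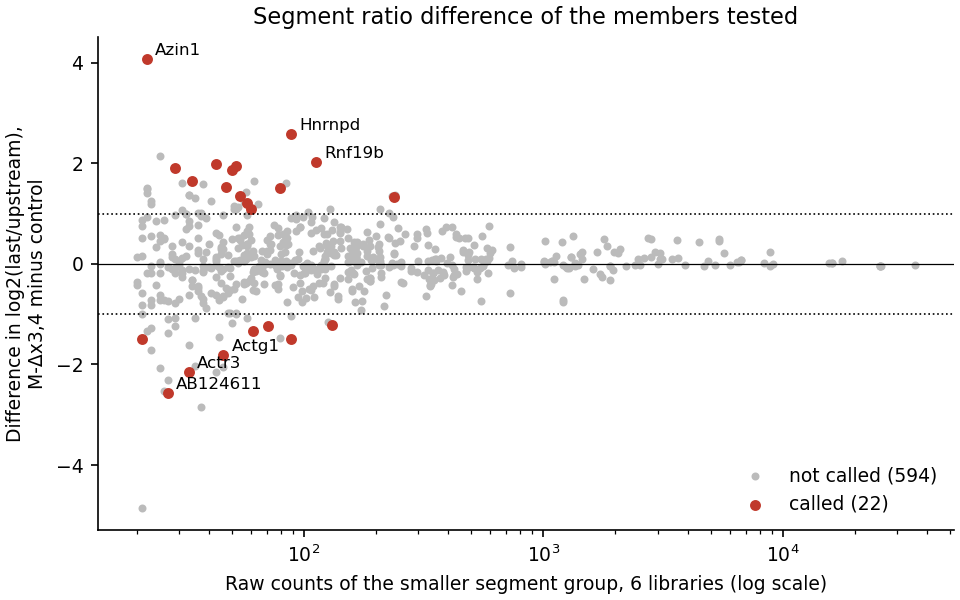
Difference in log2(last/upstream) between M-Δx3,4 and control BMDMs (y axis) for the 616 members tested, by the raw counts of the smaller segment group over the 6 libraries (x axis, log scale), with the 22 called members in red and dotted lines at absolute differences of 1. None of the 82 members with at least 1000 counts in each segment group is called, and their largest absolute difference is 0.76. Whether both counts of a member hold the reads that cross the junction is not known.

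Among the genes called with libraries that did not overlap, Hnrnpd and Actg1 kept the call with each library left out in turn. Azin1 kept it without each M-Δx3,4 library, but these together held only 2 of its upstream counts. Without a control library it was not tested because its upstream counts then fell under 20. Hnrnpd met the limit of 20 upstream counts through control and Actg1 through M-Δx3,4 BMDMs, in each case the group with the higher upstream counts. That their calls were kept is therefore no separate support for them. The deleted gene came first. Its 30-base segment held 50, 17 and 10 raw counts in control against 6, 2 and 3 in M-Δx3,4 BMDMs, and the last segment of p45 held 239, 165 and 80 against 135, 126 and 207. The short segment was thus lower in all M-Δx3,4 libraries than in any control library, whereas the last segment overlapped. The upstream share of p45 was 17.3, 9.3 and 11.1% in control against 4.3, 1.6 and 1.4% in M-Δx3,4 BMDMs. This gave a difference in log2(last/upstream) of 2.58 (standard error 0.53, edgeR adjusted p = 0.564), which lay between 2.21 and 3.20 over all alternatives.

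For the count row of p37, which holds 3 Hnrnpd transcripts with identical counts that cannot be told apart here and whose last segment has 332 annotated bases and lies inside that of p45, the short segment and the last segment were both lower. The share was 32.7, 16.7 and 16.7% in control against 11.1, 15.4 and 14.3% in M-Δx3,4 BMDMs, without overlap, and the ratio difference was 0.90 (standard error 0.55, edgeR adjusted p = 0.981). The 3 members of Hnrnpd annotated as NMD transcripts had differences of 0.98, 0.90 and -0.34, none past the threshold. All 5 share counted bases with each other, so they are not independent. In the transcript test 4 of the 5 were called lower, with log2 fold changes of -2.11 (the row of p37), -2.05, -2.11 and -2.92, while p45 had -0.57 (standard error 0.41, edgeR adjusted p = 0.984).

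**Figure D4:**
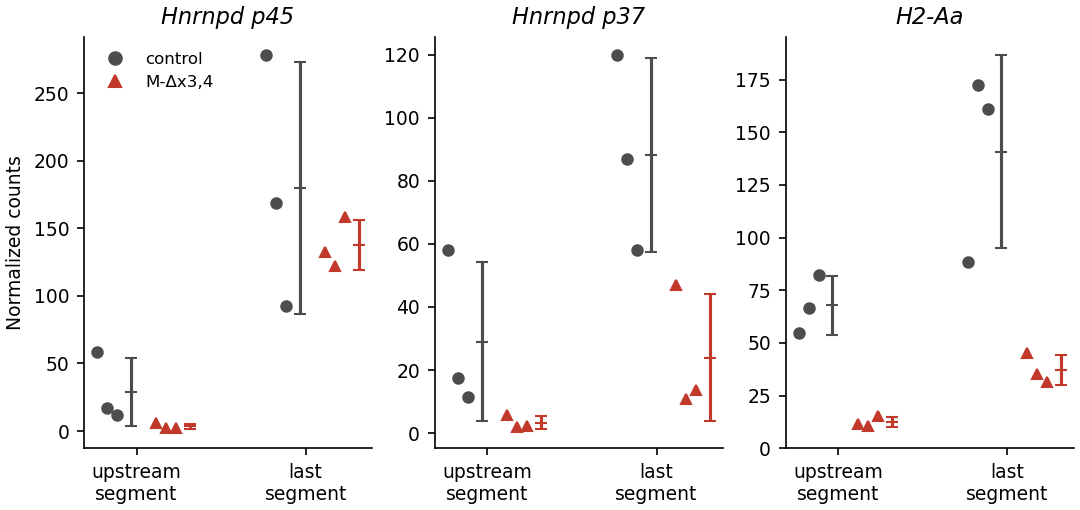
Normalized counts (y axis) of the upstream and last segments of Hnrnpd p45, Hnrnpd p37 and H2-Aa in each library, with bars for the mean and SD of 3 control (circles) and 3 M-Δx3,4 libraries (triangles). The upstream segment of both Hnrnpd transcripts and both segments of H2-Aa lie lower in every M-Δx3,4 library than in any control library, while the last segment of p45 overlaps.

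Azin1 encodes the antizyme inhibitor of polyamine metabolism, and its NMD member had 919 upstream bases in 6 segments. These held 9, 4 and 7 raw counts in control against 0, 1 and 1 in M-Δx3,4 BMDMs, of totals between 91 and 426. All M-Δx3,4 libraries were under all control libraries. Per normalized count the upstream level was 12.4 times higher in control than in M-Δx3,4 BMDMs (95% exact interval 3.02 to 110.0, counting error only), and the ratio difference was 4.07 (standard error 0.73, edgeR adjusted p = 0.564). The member met the limit of 20 upstream counts through control, with 20 there against 2 in M-Δx3,4 BMDMs. The interval comes from the same counts as the call and is no separate support for it.

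Actg1, the cytoplasmic gamma actin gene, went in the other direction. The upstream segments of its NMD member held 3.0, 1.4 and 2.3% of its counts in control against 7.7, 11.8 and 5.1% in M-Δx3,4 BMDMs. The upstream raw counts themselves were 5, 2 and 8 in control and 9, 11 and 11 in M-Δx3,4 BMDMs, while the last segment was lower (log2 fold change -1.08). The ratio difference was -1.82 (standard error 0.48, edgeR adjusted p = 0.74). With only the segment next to the last as upstream it was -1.52 and not called.

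**Figure D5:**
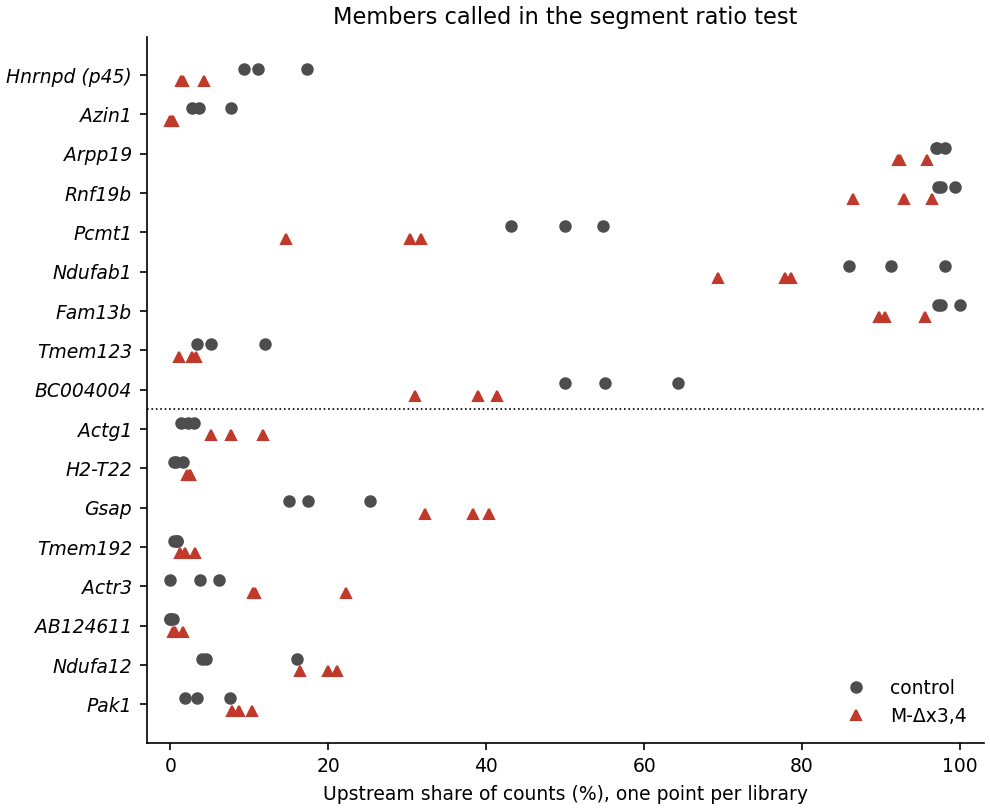
Upstream share of counts (x axis, %) in each library for the genes described here that were called in the segment ratio test and whose libraries do not overlap, with control libraries as circles and M-Δx3,4 libraries as triangles. Genes above the dotted line have lower upstream shares in M-Δx3,4 BMDMs, and those below it higher ones.

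The other calls described here toward a higher last-to-upstream ratio in M-Δx3,4 BMDMs rested on single libraries, without which the unadjusted p was over 0.05. All had an edgeR adjusted p of 0.981. Rnf19b had nearly all of its counts in its 29-base upstream segment, with shares of 97.6, 97.2 and 99.3% in control against 92.9, 86.5 and 96.4% in M-Δx3,4 BMDMs. Its ratio difference was 2.02 (standard error 0.67), and the call was lost without M-Δx3,4 replicate 2 (1.48) or control replicate 3 (1.54). Arpp19, which encodes an inhibitor of the phosphatase PP2A, had 98.1, 96.9 and 97.1% of the counts of its NMD member upstream in control and 92.1, 92.4 and 95.8% in M-Δx3,4 BMDMs. The difference was 1.35 (standard error 0.44), but 1.19 and not called without M-Δx3,4 replicate 2 and 1.09 without control replicate 1. The shares of both genes lay apart between the groups, although most counts were upstream in all libraries.

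Ndufab1 had 98.1, 86.0 and 91.2% of its counts in the 8-base upstream segment in control, and 69.4, 77.8 and 78.6% in M-Δx3,4 BMDMs. The difference was 1.94 (standard error 0.68), and 1.72 and not called without M-Δx3,4 replicate 1. Of the other members of Ndufab1 tested, 1 was called (1.87) and 1 was not (0.83). Pcmt1, which encodes an isoaspartate repair methyltransferase, had 50, 43.2 and 54.8% upstream in control against 30.3, 31.8 and 14.6% in M-Δx3,4 BMDMs. It differed by 1.51 and lost the call without M-Δx3,4 replicate 3 (1.09), control replicate 1 (1.49) or control replicate 3 (1.35). The groups were apart in both genes.

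The NMD member of Fam13b, a gene with a RhoGAP domain, had upstream shares of 97.2, 100.0 and 97.6% in control against 95.6, 89.8 and 90.5% in M-Δx3,4 BMDMs. It differed by 1.90 and was not called without M-Δx3,4 replicate 2 (1.72) or control replicate 3 (2.11), nor tested without M-Δx3,4 replicate 3. Tmem123, a transmembrane protein gene, differed by 1.52 and lost the call without control replicate 1 (1.77) or 3 (0.99), without M-Δx3,4 replicate 1 (1.14) or 2 (1.61), and by limma (1.54). BC004004 differed by 1.1 and lost it without any of the 6 libraries (0.89 to 1.29), with the replicate number as a block (1.1) and with the segment next to the last alone (1.04). Where every transcript with at least 1 count in each segment group was tested, which changes the estimated spread, Arpp19, Pcmt1 and BC004004 were not called.

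The calls toward a lower last-to-upstream ratio mostly had few upstream counts in control. Gsap, the gene of the gamma-secretase activating protein, had the most, with 25.3, 15 and 17.4% upstream in control against 32.2, 40.4 and 38.3% in M-Δx3,4 BMDMs. Its difference was -1.21 (standard error 0.40, edgeR adjusted p = 0.981), and it was not called without M-Δx3,4 replicate 2 (-1.11), M-Δx3,4 replicate 3 (-1.16) or control replicate 2 (-1). H2-T22, a nonclassical MHC class I gene, had 0.5, 0.7 and 1.6% upstream in control against 2.5, 2.1 and 2.5% in M-Δx3,4 BMDMs. Its difference was -1.33 (standard error 0.41, edgeR adjusted p = 0.944), and the call was lost without control replicate 2 (-1.12) and with the segment next to the last alone (-1.12). In both genes every M-Δx3,4 library lay above every control library.

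Actr3, the gene of an Arp2/3 subunit, had 1, 2 and 0 upstream raw counts in control against 2, 6 and 22 in M-Δx3,4 BMDMs, which is 8.04 times more per normalized count in M-Δx3,4 (95% exact interval 2.50 to 41.2). Its ratio difference of -2.16 was not called without control replicate 1 (-2.21) or 3 (-1.68) or with the replicate number as a block (-2.05). AB124611 had 0, 3 and 0 upstream raw counts in control against 4, 5 and 15 in M-Δx3,4 BMDMs, with an interval of 1.95 to 33.4 around 6.43 times more. Its difference of -2.57 lost the call without control replicate 1 (-2.19) or 3 (-1.98), and was -5.82 without control replicate 2, which held the 3 control counts. Neither gene was tested without M-Δx3,4 replicate 3, since its upstream counts then fell under 20. Most of the upstream counts of both genes came from M-Δx3,4 replicate 3. Both genes met the limit of 20 upstream counts only through M-Δx3,4 BMDMs, with 30 and 24 there against 3 and 3 in control. Their intervals come from the same counts as the calls and are no separate support for them.

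Tmem192, which encodes a lysosomal membrane protein, had 5 upstream raw counts in all control libraries and 16 in all M-Δx3,4 libraries, with an interval of the ratio of 0.90 to 8.98 that includes no change. Its difference of -1.50 lost the call without control replicate 1 (-1.28), and without any other library it had too few upstream counts to be tested. Ndufa12, a complex I subunit gene (difference -1.49), kept its call without control replicate 1 but not without any other library (-1.63 to -1.14). Pak1, a kinase gene (difference -1.24), likewise kept it without control replicate 1 alone (-1.34 to -0.75 without the others) and was not called by limma (-1.24). Gsap, Tmem192 and Pak1 were not called either where every transcript with at least 1 count in each segment group was tested.

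The second comparison asked whether the summed level of the members differed. By edgeR's quasi-likelihood test over 32475 transcripts, 65 of the 1811 members (3.59%) were called by the same thresholds on the log2 fold change, 11 higher and 54 lower in M-Δx3,4 BMDMs. Of all transcripts tested 3.3% were called, 1.25% higher and 2.05% lower, and of the 10264 single-segment protein_coding transcripts with the same count limit 1.7%, of which 1.17% lower. Levels were without overlap between the groups in 145 members, against 8.88% of all transcripts and 8.75% of the single-segment ones. Among the calls, 17 were members of 16 Mup genes and Alb, which encode liver proteins. Their counts lay in control replicate 3, with 0, 12 and 6578 raw Mup counts in control against 27, 0 and 32 in M-Δx3,4 BMDMs, and the Mup genes are near-identical copies whose reads cannot be told apart. Without them 48 members (2.68%) were called, 37 of them lower. No member had an adjusted p under 0.05 in edgeR (smallest 0.824), 85 had an unadjusted p under 0.05, and DESeq2 gave 1 member with an adjusted p under 0.05, H2-Aa. Leaving out control replicate 1 raised the number of members called to 256, and leaving out control replicate 3 lowered it to 36.

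By annotated type, the NMD members were called about as often as the coding ones once the Mup genes and Alb, all of the coding type, were set aside. Of the 1223 NMD members 34 (2.78%) were called, 8 higher and 26 lower, with a median log2 fold change of -0.04. Of the coding members without these 17, 14 (2.48%) were called, and the median log2 fold change of all coding members was 0.05. Taken segment by segment, 34 members were called in the last segment (4 higher, 30 lower, background 5.35%) and 40 in the upstream segments (7 higher, 33 lower, background 6.34%), of which 17 and 23 were outside the Mup genes and Alb. These counts rested on single libraries: in the last segment 12, 2 and 6 members were called without M-Δx3,4 replicate 1, 2 and 3, 58 without control replicate 1 and 8 without control replicate 3. In the upstream segments 21, 17 and 18 were called without M-Δx3,4 replicate 1, 2 and 3, and 26 without control replicate 3.

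H2-Aa had the smallest p of all members. Its normalized counts were 143.0, 239.1 and 243.6 in control and 56.7, 45.6 and 46.6 in M-Δx3,4 BMDMs, and no libraries overlapped. The log2 fold change was -2.07 (standard error 0.37, edgeR adjusted p = 0.824). Both its 20-base upstream segment (-2.42) and its last segment (-1.92) were lower, and the ratio between them differed by 0.51 (standard error 0.36) and was not called. Of the 8 members in MHC genes, picked here by symbol, 3 were called lower, and these were the class II genes: beside H2-Aa, Cd74 (invariant chain, log2 fold change -1.57) and H2-Eb1 (beta chain, NMD member, -1.08), named after their values were seen. Cd74 had 18.6, 51.1 and 29.0 normalized counts in control against 11.7, 16.5 and 5.3 in M-Δx3,4 BMDMs, and H2-Eb1 19.8, 56.2 and 38.3 against 22.5, 19.4 and 12.2, so the libraries of H2-Eb1 overlapped. Both had an edgeR adjusted p of 0.984. Their mean raw counts of 21.2 and 27.3 were near the limit of 20, which both met through the higher control libraries. They are therefore no separate support for the decrease of H2-Aa. The summed level of the 5 B cell markers, all of which had counts, was lower too, at 251.0, 260.0 and 282.0 in control and 120.0, 98.1 and 118.0 in M-Δx3,4 BMDMs, and its part in the class II result was not tested. In bulk RNA, fewer cells of a type and less RNA per cell cannot be told apart.

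The other named decreases were in Jak3, Ggct, Sh2b1, Esyt1 and Gps1. Sh2b1, a signalling adaptor gene, had 37.2, 40.9 and 49.9 normalized counts in control against 16.6, 6.8 and 22.2 in M-Δx3,4 BMDMs, all in the last segment, which gave -1.47 on the log2 scale (standard error 0.48, edgeR adjusted p = 0.984). It kept its call without each library. Its raw counts were 32, 40 and 43 in control against 17, 7 and 29 in M-Δx3,4 BMDMs. Sh2b1 thus met the limit on the mean raw count through control, and the kept call is no separate support for the decrease. Jak3 had 50, 45 and 113.7 in control and 27.4, 21.4 and 28.3 in M-Δx3,4 BMDMs, with an upstream share of 60.8 ± 4.1% and 60.9 ± 6.5% (mean ± SD, n = 3). The levels lay apart and the shares overlapped. Its log2 fold change of -1.43 was -0.87 without control replicate 3, and its counted bases overlap B3gnt3 on the other strand. Ggct (a gamma-glutamyl cyclotransferase) fell by 1.77 on the log2 scale, and by 1.1 without control replicate 1, when it was not called. Ggct also met the limit through control, with 73, 28 and 28 raw counts there against 12, 25 and 9 in M-Δx3,4 BMDMs. Esyt1, which tethers the endoplasmic reticulum to the plasma membrane, had -1.26 and Gps1, a COP9 signalosome subunit, -1.37, but -0.92 and -0.86 without control replicate 3.

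Increases were weaker. The members described here that were called higher without overlap were Rell1, Tctex1d2, Rbm39 and Tmtc4, and each lost the call without at least 2 of the libraries. Of these, Rell1, Tctex1d2 and Rbm39 met the limit on the mean raw count through the higher M-Δx3,4 libraries. Rbm39, which encodes a splicing factor and has 7 members, had an NMD member with 22.1, 16.3 and 24.4 normalized counts in control against 41.1, 30.1 and 74.1 in M-Δx3,4 BMDMs. Its log2 fold change was 1.22 (standard error 0.46, edgeR adjusted p = 0.984), 0.76 without M-Δx3,4 replicate 3 and 1.06 without control replicate 2, and not called in either case. Most of its counts lay upstream in all libraries (61.9 to 83.3%). Rell1, a TNF receptor family relative, had 30.2, 9.2 and 10.4 normalized counts in control against 30.3, 60.2 and 46.6 in M-Δx3,4 BMDMs, so the highest control and the lowest M-Δx3,4 library nearly met. Its log2 fold change of 1.46 was not called without M-Δx3,4 replicate 2 (1.21) or control replicate 2 (1.16). Tctex1d2, a dynein light chain gene, changed by 1.41 and lost the call without M-Δx3,4 replicate 2 (1.31) or 3 (1.30) or control replicate 2 (1.25). Tmtc4 (1.06) was not called without M-Δx3,4 replicate 1 (0.81) or 3 (0.98) or control replicate 2 (1.07) or 3 (0.95), nor with the replicate number as a block (0.99).

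The factors that read 3′ UTR junctions and poly(A) sites did not pass the test. Each gene was taken by its transcript with the highest count, so a change in its other transcripts is not covered. Of 19 NMD and exon junction complex genes tested, 0 were called by edgeR or DESeq2 and 0 had an unadjusted p under 0.05, with a median log2 fold change of -0.07 (all transcripts -0.03). Their members were Casc3, Magohb and Upf1, the helicase at the centre of NMD, which had 21.7 raw counts on average and a log2 fold change of -0.68 (standard error 0.50). Of 21 cleavage and polyadenylation genes 0 were called by either tool or had an unadjusted p under 0.05. Papola, the poly(A) polymerase, had upstream shares of 39.7 ± 3.6% in control and 49.2 ± 6.2% in M-Δx3,4 BMDMs in its NMD member (ratio difference -0.55, standard error 0.36).

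The hnRNP list held 29 members of 12 genes, and apart from Hnrnpd 0 were called in either test by edgeR. Besides Hnrnpd, 1 member had an unadjusted p under 0.05 in the transcript test, of Hnrnpm (log2 fold change 0.92, standard error 0.32). DESeq2 called 4 of the 29 members by the same thresholds. Taken by gene, 0 of the 28 hnRNP genes tested were called by edgeR or DESeq2, and 1 had an unadjusted p under 0.05 in edgeR. These 28 include Hnrnpd, which was not called by its transcript with the highest count although members of it were called lower. A count by gene can therefore miss called transcripts. Hnrnpa2b1 had 3 members in the ratio test, none called. The one with the highest count, whose last junction lies 157 bases after the stop codon, had upstream shares of 33.1 ± 1.6% in control and 26.9 ± 5.8% in M-Δx3,4 BMDMs (mean ± SD, n = 3), without overlap, and its ratio difference was 0.43 (standard error 0.26, edgeR adjusted p = 0.981). The other members of Hnrnpa2b1 had differences of 0.34 (standard error 0.36) and, with another 3′ end, -0.59 (standard error 0.37). Hnrnpa1 had 95.3 ± 2.2% and 95.9 ± 3.3% of the counts of its NMD member upstream. Of 10 members of 8 SR protein genes, which regulate splicing and are known for NMD isoforms, 0 were called by edgeR or DESeq2 and 0 had an unadjusted p under 0.05. Srsf3 had upstream shares of 6.2 ± 1.5% and 4.1 ± 1.7% (ratio difference 0.67, standard error 0.38). The 3 members of the AU-rich element binding genes Rc3h1 and Tial1 were not called by edgeR or DESeq2 either, and 0 had an unadjusted p under 0.05. Taken by gene, 0 of the 10 genes of that list tested were called by either tool, and 1 had an unadjusted p under 0.05 in edgeR.

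Of 41 LPS response genes tested by their transcript with the highest count, 4 had an unadjusted p under 0.05 in edgeR (4.13% of all transcripts). By edgeR 1 of them, Cxcl3, was called lower, and DESeq2 called 1. This list had 7 members of 6 genes, of which 0 were called by edgeR or DESeq2 and 1 had an unadjusted p under 0.05. This was Rsad2 (viperin, an interferon-induced antiviral protein), with 12769.9, 8425.9 and 8310.2 normalized counts in control against 9002.1, 17923.2 and 26179.4 in M-Δx3,4 BMDMs. The groups overlapped, and the log2 fold change was 0.85 (standard error 0.36, edgeR adjusted p = 0.984). Its upstream normalized counts lay at 15.1 to 19.4 in control and 13.6 to 18.3 in M-Δx3,4 BMDMs, which gave a ratio difference of 0.94 (standard error 0.37, edgeR adjusted p = 0.981). Irf7, a regulator of interferon genes, had upstream shares of 30 ± 7.2% and 28.5 ± 7.6%, and the costimulatory gene Cd86 11.8 ± 4.1% and 12.4 ± 4.4%. Neither ratio passed the test, and the libraries of both overlapped.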

How the data were processed

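RNA from 3 control and 3 M-Δx3,4 BMDM samples was sequenced from the 3′ ends (QuantSeq, Ion Proton). Per the submitters' processing notes, the authors mapped reads to mm10 with TopHat2 2.1.1 and Bowtie2 2.3.2 (the methods give another Bowtie2 version), and per the methods counted them per 3′ UTR segment on Ensembl annotation with metaseqR2. The deposited table holds raw counts per segment. The methods state that regions were extended on both sides, whereas in the table the last segment ran 249 bases past the annotated end in 1749 members, and upstream segments were not extended. The other deposited table holds normalized values and fold changes, p-values and FDR of the authors' own comparison, and was not used here.

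Counts of a transcript's segments were summed. edgeR 4.0.16 (R 4.3.3) fitted quasi-likelihood models with median-of-ratios factors, over transcripts above the median normalized count (4.89) in at least 1 library, with Benjamini-Hochberg adjustment. The segment ratio model had terms for library, segment and segment by group, with 20 counts required in each segment group. Normalized counts are raw counts divided by these factors. Intervals cover counting error only, and PCR copies were not removed by molecular identifiers. limma 3.58.1 and DESeq2 1.42.0 were alternatives. Simulated data with known changes were used to test the scripts: 196 of 200 changed transcripts were called among 30069, and 57 of 60 changed ratios among 814. Of the unchanged ones, 28 transcripts and 2 ratios had an adjusted p under 0.05. Changed ratios were placed only where each segment group had at least 60 counts, and all planted changes were of 2 or more on the log2 scale. The share found therefore does not carry over to members with fewer counts or to smaller changes, such as those near the threshold of 1.

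Structures and sequences came from GENCODE vM21 (GRCm38). Named members were those of Hnrnpd, the 10 with the highest mean counts, the 10 highest with over 50% upstream, the non-overlapping calls with the smallest p (up to 10 in each direction for ratios, 6 for transcripts) and members of gene lists, with 1 transcript a gene. Some members that met this rule are not reported here. The members, lists and tests were chosen with earlier results of these data known.

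Samples of the same replicate number deviated together only weakly in the log2 ratios (r = 0.104, 0.127 and 0.114, the highest for each library). These values come from the data alone and do not establish a pairing. The main tests therefore used no replicate number, and a block on it was an alternative. At the transcript level only replicate 2 matched its own number best (-0.093, 0.421 and -0.125).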

Additional observations from a re-analysis of the deposited data

How the results depend on the processing

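Of 394 values of single named results under the alternatives, 318 kept their direction and side of the threshold, 75 fell below it and 1 reversed: the ratio difference of the Hnrnpd NMD member ENSMUST00000168396 went from -0.34 to 0.00 (above zero before rounding) without M-Δx3,4 replicate 2, in a range of -0.70 to 0.00 over the libraries left out. Leaving out 1 library each, 16 to 27 members were called in the ratio test (20 to 31 of all transcripts), 36 to 256 in the transcript test (710 to 3224 of all), 2 to 58 in the last segment and 17 to 54 in the upstream segments. The highest transcript counts came without control replicate 1. The ratio calls numbered 78 members (99 of all transcripts) with at least 1 count in each segment group, 10 (10 of all) with at least 60, and 7 among members whose upstream segments overlap no other last segment, where fewer were tested. With only the segment next to the last, 16 of all transcripts were called. The transcript calls were 40 members (696 of all) with DESeq2, 466 of all with filterByExpr, 1715 of all with no filter, 102 members with a mean of at least 10 counts and 32 with at least 50. With the replicate number as a block (pairing), 30 members were called in the ratio test instead of 22, and of the named ratio calls those of Actr3 and BC004004 were lost. At the transcript level, where the numbers did not pair the libraries, the block gave 56 members and 685 of all transcripts. Without the Mup genes and Alb, an alternative chosen after seeing the data, 48 members were called. The counts of the smaller segment group limit the ratio test: 1116 members had under 20 upstream counts and 79 under 20 in the last segment.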

Other observations

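Members of Atp5a1 and Ddrgk1 are given here because of their values, and of these only Atp5a1 differed by less than the threshold of 1 on the log2 scale. The NMD member of Atp5a1, the gene of the alpha subunit of mitochondrial ATP synthase, had 14.3, 15.6 and 14.9% of its counts upstream in control and 10.2, 8.3 and 9.8% in M-Δx3,4 BMDMs, without overlap. Its ratio difference was 0.76 (standard error 0.17, edgeR adjusted p = 0.564), while its level did not pass the test (log2 fold change -0.08, standard error 0.3). The call of Ddrgk1, which encodes a protein of the endoplasmic reticulum membrane, was left out above because its libraries overlapped: 15.2, 5.5 and 18.5% upstream in control and 2.7, 1.4 and 5.6% in M-Δx3,4 BMDMs (ratio difference 1.98, edgeR adjusted p = 0.981).

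Among gene families grouped by symbol after the values were seen, complex I genes had 21 members of 15 genes with a median upstream share of 38.2%, and 3 were called in the ratio test, 2 of Ndufab1 and 1 of Ndufa12, in opposite directions. Proteasome subunit genes had 17 members with a median share of 39.4%, of which 11 were tested and 0 were called or had an unadjusted p under 0.05 in edgeR, and 0 were called by limma. The mitochondrial ribosomal protein genes had 15 members with a median share of 12.1%, of which 8 were tested with the same result. The cytosolic ribosomal protein genes had 33 members tested, of which 0 were called by edgeR or limma and 1, Rpl31, had an unadjusted p under 0.05.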
